A study of Mus musculus with 8 samples.

Results

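Heat shock proteins, J-proteins and subunits of the cytosolic chaperonin were followed as a group of 61 genes in RNA-seq of mouse embryonic fibroblasts (MEFs), connective tissue cells grown in culture from embryos. The members were chosen by gene symbol, with earlier results of these data known. Symbols starting with Hspa, Hspb, Hspd, Hspe, Hsph, Dnaja, Dnajb or Dnajc and a number, with Hsp90a, or with Cct2 to Cct8 were taken. Pseudogenes were left out, as were 6 genes whose proteins work in the endoplasmic reticulum (Hspa5, Hspa13, Dnajb9, Dnajb11, Dnajc3 and Dnajc10). Of 49492 genes in the table, 74 matched, and 61 of these reached a value of 1 in 2 or more samples and were among the 16232 genes tested. The other 13 (Hspb2, Hspb3, Hspb9, Cct6b, Cct8l1, Dnajb3, Dnajb7, Dnajb8, Dnajb13, Dnajc5b, Dnajc5g, Dnajc6 and Dnajc22) were too low to test.

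The experiment asked which genes respond differently to glucose starvation when Pontin cannot be methylated on arginine. Ruvbl1 encodes Pontin, an ATPase found in complexes that remodel chromatin. Both genotypes were MEFs with a floxed Pontin gene that a Cre virus removed. WT cells stably expressed a Flag-tagged Pontin of wild-type sequence, and RA cells stably expressed a Flag-tagged Pontin with alanine in place of 2 arginines that are methylated. Each genotype was grown with glucose (unstarved) or starved of it, for a time not given by the labels, which made 4 groups of 2 samples. WT and RA were 1 line each, so a difference between lines and a difference between Pontin forms cannot be told apart. The labels do not say that the samples of a group were separate cultures, so p-values measure the spread between these samples, which may be technical.

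Values are CPM, reads divided by the library size, with library sizes that the authors had scaled, and are called scaled CPM here. Library totals ran from 43205841 to 56363034 reads. A value equal to 3 reads lay between 0.0548 and 0.069, and the lowest read number behind any member in any sample was 12 (Hspb7), so counting error was small for nearly all members. Ruvbl1 stood at 28.4 and 27.6 in unstarved WT, 27.9 and 28.4 in starved WT, 36.8 and 32.0 in unstarved RA and 45.0 and 42.9 in starved RA. These reads do not tell the added copy from the endogenous gene, so they do not check the genotype labels. In the limma fit described below, Ruvbl1 was higher in RA in normal medium, at a log2 difference of 0.29 (limma adjusted p = 0.00946). Under starvation it was higher in RA by 0.62 (limma adjusted p = 2.94e-07). The level of the Pontin transcript thus also differed between the lines, and its part in the results below was not tested. All 8 fibroblast markers examined reached a value of 1, and their summed level was 10002 to 10080.1 in WT and 9905 to 10232 in RA in normal medium, 5306 to 5399 in starved WT and 7007 to 7025 in starved RA. Single fibroblast markers moved unequally. Starvation lowered 7 of them and raised 0 in WT, and lowered 5 and raised 1 in RA (limma adjusted p under 0.05). Col1a1 averaged 1688 in unstarved and 204 in starved WT, with RA means of 1570 and 640. In the same order, Col3a1 averaged 284 and 15.8 for WT, then 239 and 45.1 for RA. Fn1 differed, with WT means of 2357 and 2413 and RA means of 2370 and 3173. Of 5 haematopoietic markers none reached 1, and their sum was at most 0.822. The sum of 3 endothelial markers was 2.28 to 3.09 in WT and 1.90 to 3.06 in RA in normal medium, 6.37 to 6.60 in starved WT and 5.45 to 5.86 in starved RA, of which Kdr made up 6.24 and 6.54 in starved WT and 5.21 and 5.66 in starved RA, while Pecam1 and Cdh5 stayed below 1 in all samples. The sum of 4 epithelial markers was 1.43 to 2.12 in WT and 1.84 to 1.94 in unstarved RA, and 2.68 to 3.21 in starved RA. The part of these shifts in the results below was not tested. In bulk RNA, fewer cells of a type and less RNA per cell cannot be told apart.

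Chaperones bind proteins that are not yet folded or have lost their fold. HSP70 proteins hold and release such chains in a cycle driven by ATP, J-proteins (the DNAJ family) bring chains to HSP70 and speed up its ATPase, and HSP110 proteins exchange its nucleotide. HSP90 acts later on kinases and receptors, small HSPs hold unfolded chains without ATP, the ring-shaped CCT chaperonin folds actin and tubulin, and mitochondria have their own HSP70 and a chaperonin made of HSP60 and HSP10. In heat-stressed cells many of these genes are switched on by heat shock factor 1 (HSF1), which binds inverted repeats of the letters GAA.

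Promoter sequences were searched for exact copies of such repeats close to the start of members. Repeats with changed letters or outside the windows were not searched for, so a member without a match may still carry them. RefSeq promoter windows on GRCm38.p6, from 250 bases before to 50 bases after each start site, matched 50 of the 61 members. A run of 3 units in turning orientation (GAA, TTC and GAA, each 2 bases of any kind apart, searched on both strands) was found in 198 of all 32851 windows (0.603%). It was found in 6 of the 68 windows of members, those of 4 members: Hspd1, Hspe1, Dnajb6 and Hsph1. The windows of Dnajb6 overlap and hold the same run, as do those of Hsph1. The windows of Hspd1 and Hspe1 hold the same stretch. The 6 windows are thus not independent of each other, and their share was not tested against that of all windows. The shorter forms with 2 units overlap it. GAANNTTC was found in 7.86% of all windows and in 15 of the 68 windows of members, those of 13 members. These were Cct2, Dnaja1, Dnaja4, Dnajb6, Dnajc27, Hspa1a, Hspa1b, Hspb1, Hspb6, Hspb8, Hspd1, Hspe1 and Hsph1. TTCNNGAA was found in 8.52% of all windows and in 9 of the 68, those of 7 members. Hspd1 (HSP60) and Hspe1 (HSP10) are read in opposite directions from starts that lie close together. The 215 bases between 1 of the 2 Hspd1 start sites and the Hspe1 start hold an overlapping pair of 3-unit runs, shown because both genes share them. The stretch is chr1:55087933-55088147 on the plus strand of GRCm38.p6, with Hspd1 to the left and Hspe1 to the right. Capitals mark the 18 bases covered by the runs, which lie 89 to 72 bases before the Hspe1 start.
Hspd1-Hspe1: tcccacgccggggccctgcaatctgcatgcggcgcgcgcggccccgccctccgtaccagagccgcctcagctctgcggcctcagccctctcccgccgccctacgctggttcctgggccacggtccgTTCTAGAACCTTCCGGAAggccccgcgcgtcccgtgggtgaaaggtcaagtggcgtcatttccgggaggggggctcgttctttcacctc
The run near Dnajb6 lies at chr5:29735844-29735872 (plus strand, 46 to 34 bases before 1 of its start sites) and the run near Hsph1 at chr5:149636280-149636308 (minus strand, 15 to 27 bases after 1 of its start sites), each printed with its neighbouring bases and with the 3 units in capitals.
Dnajb6: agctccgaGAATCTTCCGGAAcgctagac
Hsph1: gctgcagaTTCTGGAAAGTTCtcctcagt
A match is a description of the letters and not evidence of binding. The 4 genes did not move as a set: Hspe1 and Dnajb6 rose in starved WT and fell in starved RA, Hspd1 rose in WT and was not called in RA, and Hsph1 fell in both, with values given below.

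Starvation changed most members in both genotypes, as it did most genes. In WT, 31 members rose and 19 fell, so 50 of 61 were called (limma on log2(value + 1), adjusted by Benjamini-Hochberg (BH) over all genes tested, at a p under 0.05), where 78.6% of all genes tested were called, 39.3% upward and 39.2% downward. The median log2 difference was 0.14 for the members and 0.0049 for all genes. In RA, 19 rose and 26 fell, so 45 were called, where 68.7% of all genes were, 35% upward and 33.7% downward, and the medians were -0.087 for the members and 0.013 for all genes. The difference between the responses, RA less WT, was called for 34 members, 7 upward and 27 downward, where 50.6% of all genes were called, 24.5% upward and 26.1% downward. Its median was -0.16 for the members and -0.011 for all genes.

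**Figure D1:**
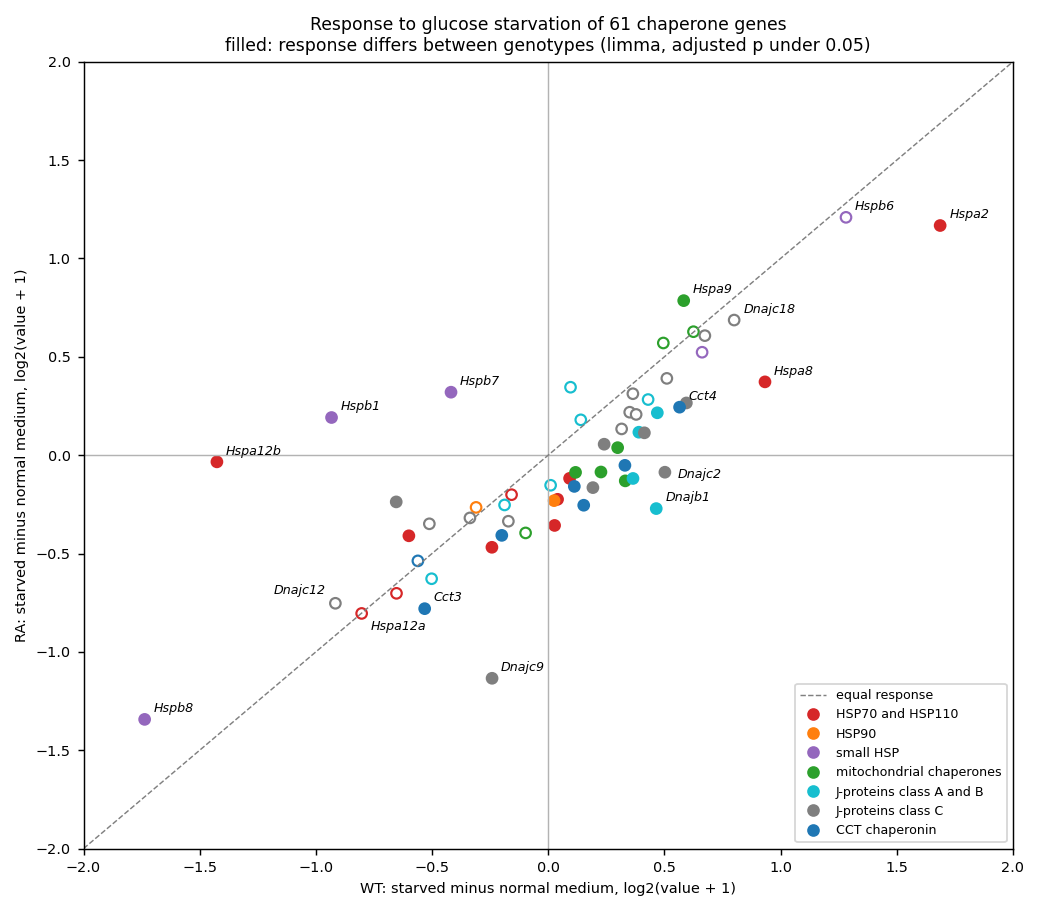
Log2 difference between starved and normal medium in WT (x axis) and in RA (y axis) for each of the 61 genes, coloured by role, on the log2(value + 1) scale; filled points are the 34 genes whose responses differed and the dashed line marks equal responses. Most filled points lie below the line, and the 7 above it are Hspa12b, Hspb1, Hspb7, Dnajc17, Hspb8, Hspa9 and Hsph1.

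The members fell into 9 classes by the calls in the 2 genotypes, which share no samples. In both genotypes 16 members rose (Cct4, Dnaja3, Dnaja4, Dnajb2, Dnajc1, Dnajc5, Dnajc13, Dnajc18, Dnajc21, Dnajc27, Dnajc30, Hspa2, Hspa8, Hspa9, Hspb6 and Hspb11), 26.2% of the members against 27.1% of all genes. Another 16 fell in both (Cct3, Cct6a, Cct8, Dnaja1, Dnaja2, Dnajc7, Dnajc9, Dnajc12, Dnajc24, Dnajc25, Hsp90aa1, Hspa4, Hspa12a, Hspa14, Hspb8 and Hsph1), again 26.2% against 27.3% of all genes. A set of 6 rose in WT and fell in RA (Cct5, Cct7, Dnajb1, Dnajb6, Dnajc8 and Hspe1), which is 9.84% of the members, where 1.76% of all genes (285 of 16232) did so. The difference between the responses was called for all 6, which nearly follows from 2 opposite calls in the same fit and adds no support. This class was singled out after its values were seen. It held 8 members without RA normal-medium replicate 1, 3 without RA normal-medium replicate 2, and 4 without either starved RA sample. The opposite pattern was seen for Hspb1, where 3.01% of all genes had it.

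In the remaining classes, 9 members rose in WT and were not called in RA (Cct2, Dnajb12, Dnajc2, Dnajc4, Dnajc11, Dnajc14, Dnajc16, Dnajc19 and Hspd1; 10.4% of all genes). Dnajc17 and Hspa12b fell in WT and were not called in RA (8.88% of all genes). Dnajb5 and Dnajb14 rose in RA without a call in WT (4.89% of all genes). Dnajc15, Hsp90ab1, Hspa1b and Hspa4l fell in RA without a call in WT (4.60% of all genes). The last 5, Dnajb4, Dnajc28, Hspa1a, Hspa1l and Hspb7, were called in neither (11.9% of all genes). Members named here without values fall outside the fixed rule for named genes.

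**Figure D2:**
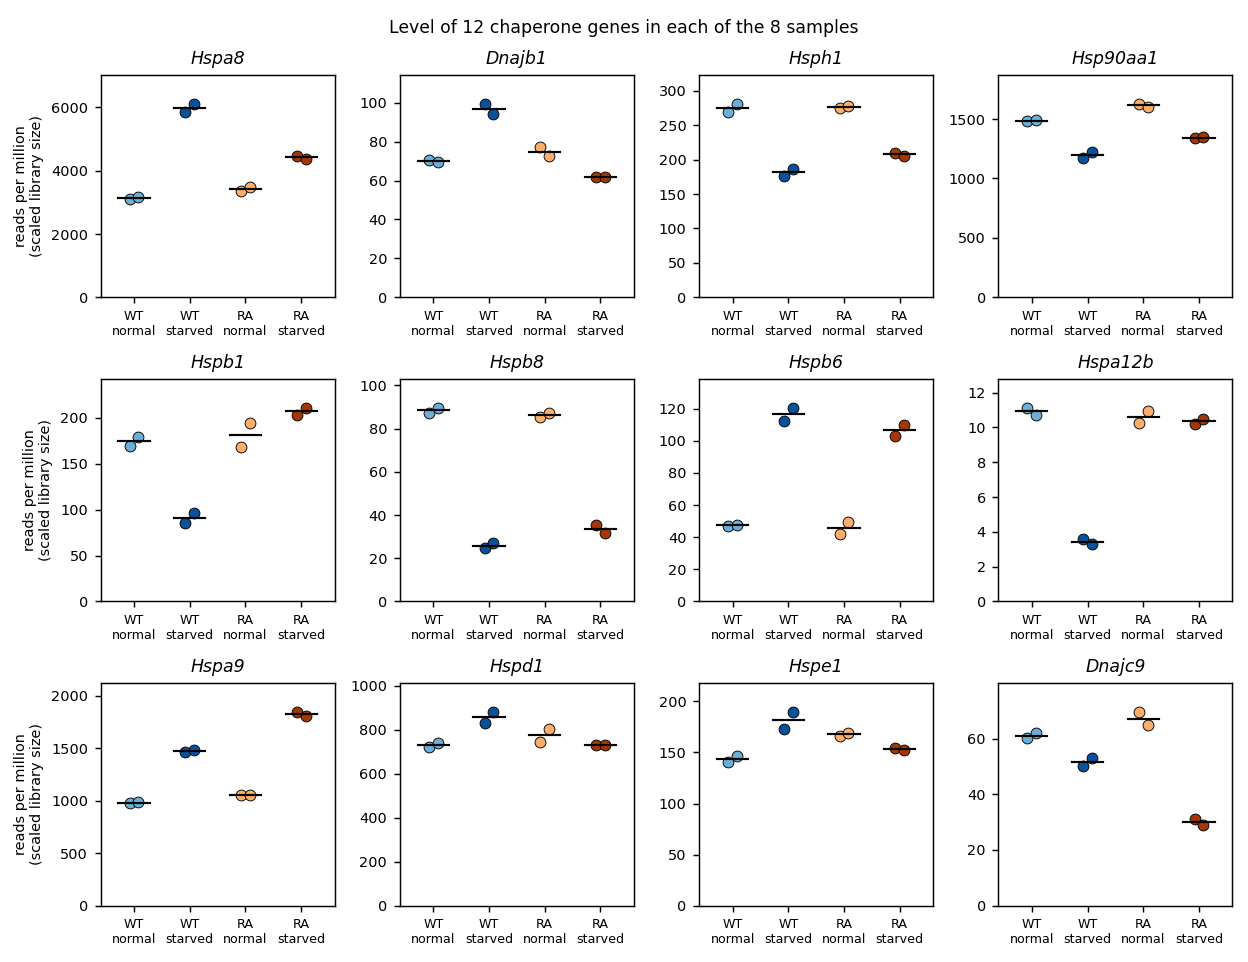
Scaled CPM of 12 genes in each of the 8 samples; points are single samples, bars are the means of the 2 samples of a group, and every vertical axis starts at 0. Hspa8 and Dnajb1 stand highest in starved WT, Hspb1 is lowest there, and Dnajc9 is lowest in starved RA.

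Levels of different genes were compared per kilobase of the longest coding transcript (GENCODE M21). On that scale Hsp90ab1 and Hspa8 led in WT in normal medium, at 1321 ± 30.2 and 1309 ± 22.7 (SD, n = 2), with ranges that overlapped, followed by Hsp90aa1 at 453 ± 1.64 and Hspa9 at 322 ± 0.992. Cct5 and Hspd1 came next at 307 ± 4.14 and 302 ± 5.93, again within their spread. The lowest was Hspb7 at 0.298 ± 0.123. In starved WT Hspa8 stood alone at the top, at 2500 ± 81.7 against 1344 ± 19.5 for Hsp90ab1. The 61 members together took 1.71% to 1.74% of all reads in WT in normal medium, 1.93% to 1.97% in starved WT, 1.77% to 1.78% in RA in normal medium and 1.76% to 1.78% in starved RA. Hspa8, with means of 3133 scaled CPM in unstarved and 5984 in starved WT, made up the rise in WT. The other members together did not take a larger share there.

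Hspa8 encodes HSC70, the constitutive HSP70 of the cytosol, which also carries proteins to the lysosome in chaperone-mediated autophagy. Hspa8 (chr9:40800984-40810087, plus strand, GRCm38) stood at 3095 and 3171 in unstarved WT, 5846 and 6122 in starved WT, 3347 and 3482 in unstarved RA and 4475 and 4366 in starved RA. All 4 starved samples lay above all 4 in normal medium, and the 2 starved groups did not overlap. Hspa8 rose 1.91-fold in WT, by a log2 difference of 0.93 (SE 0.052, adjusted p = 2.9e-11 by limma), and 1.29-fold in RA, by 0.37 (SE 0.052, adjusted p = 6.73e-06 by limma). RA and WT responded differently, by -0.56 (SE 0.073, adjusted p = 8.51e-06 by limma), and starved RA lay below starved WT, at -0.44 (SE 0.052, adjusted p = 1.47e-06 by limma). HSC70 transcripts rose in both genotypes, by less in RA.

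The stress-inducible HSP70 genes were not called upward in either line. Hspa1a and Hspa1b, the classic heat-induced pair, are near-identical copies, with 99.3% identity over 2197 aligned bases of their transcripts, so reads of 1 may be counted for the other. Hspa1a stood at 76.2 and 73.6 in unstarved WT, 81.7 and 78.1 in starved WT, 64.7 and 72.1 in unstarved RA and 63.5 and 62.2 in starved RA. Hspa1b stood at 119.9 and 119 in unstarved WT, 125 and 121 in starved WT, 110.0 and 116 in unstarved RA and 98.3 and 95.1 in starved RA. The pair was thus close to its normal level in starved WT and lowest in starved RA. In WT neither was called, at 0.092 (limma adjusted p = 0.111) and 0.040 (limma adjusted p = 0.384). In RA Hspa1b fell, at -0.22 (SE 0.042, adjusted p = 0.000145 by limma), and Hspa1a was not called at -0.12 (limma adjusted p = 0.0512), although it was called without RA normal-medium replicate 1, at -0.19 (limma adjusted p = 0.00339), and with edgeR (log2 difference -0.13, adjusted p = 0.0347), median-ratio scaling (limma adjusted p = 0.0435), total-read scaling (0.0461) and the stricter filter (0.0498). Starved RA lay below starved WT in both genes, at -0.34 (limma adjusted p = 2.11e-05) and -0.34 (limma adjusted p = 2.08e-06). Between the genotypes the response differed by -0.26 (SE 0.059, adjusted p = 0.00135 by limma) in Hspa1b. For Hspa1a they differed by -0.21 (SE 0.073, adjusted p = 0.0236 by limma), a call that was lost without WT normal-medium replicate 2 (-0.19), starved WT replicate 1 (-0.18), RA normal-medium replicate 2 (-0.13) or starved RA replicate 2 (-0.20), with total-read scaling (-0.14) and without the filter on low values (limma adjusted p = 0.0863). Hspa1a shares 564 exon bases with Gm20481 on the opposite strand, whose mean value of 70.5 was close to its own 71.5, and how strand was treated is not known.

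Among the other HSP70 genes, Hspa2, best known from the testis, changed most. It stood at 5.13 and 5.42 in unstarved WT, 18.8 and 19.6 in starved WT, 7.45 and 6.55 in unstarved RA and 17.9 and 16.0 in starved RA. Starved samples lay above normal-medium samples in both genotypes, without overlap. Hspa2 rose 3.64-fold in WT and 2.42-fold in RA, by log2 differences of 1.69 (SE 0.094, adjusted p = 3.04e-11 by limma) and 1.17 (SE 0.094, adjusted p = 8.13e-09 by limma), and the responses differed by -0.52 (limma adjusted p = 0.00382). Hspa12b, a distant HSP70 relative found in blood vessels, was at 11.1 and 10.7 in unstarved WT, 3.56 and 3.33 in starved WT, 10.3 and 11.0 in unstarved RA and 10.2 and 10.5 in starved RA. Starved WT stood apart from the other 6 samples. Hspa12b fell in WT by a log2 difference of -1.43 (SE 0.095, adjusted p = 3.51e-10 by limma) and was not called in RA at -0.034 (limma adjusted p = 0.766), and the difference between the responses, 1.39 (SE 0.13, adjusted p = 2.69e-07 by limma), was the highest of all members. Its relative Hspa12a stood at 8.59 and 9.59 in unstarved WT, 4.84 and 4.71 in starved WT, 8.46 and 8.35 in unstarved RA and 4.27 and 4.50 in starved RA. It fell in both genotypes to 0.525 and 0.522 of the normal level, at log2 differences of -0.80 (limma adjusted p = 1.77e-06) and -0.80 (limma adjusted p = 2.6e-06).

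The HSP110 genes encode nucleotide exchange factors of HSP70. Hsph1 (HSP105) stood at 269.9 and 281 in unstarved WT, 176 and 187 in starved WT, 275 and 278 in unstarved RA and 210.3 and 206 in starved RA. It was lower in all 4 starved samples than in any sample in normal medium. Hsph1 fell in WT by a log2 difference of -0.60 (SE 0.039, adjusted p = 2.92e-10 by limma) and in RA by -0.41 (SE 0.039, adjusted p = 7.99e-08 by limma). The difference in response was 0.19 (limma adjusted p = 0.00945), and this call was lost without WT normal-medium replicate 2, at 0.16 (limma adjusted p = 0.058). Hspa4 (APG-2) stood at 349.5 and 354 in unstarved WT, 219.8 and 227 in starved WT, 364 and 377 in unstarved RA and 235 and 220.0 in starved RA. It fell in both lines, at -0.65 (SE 0.040, adjusted p = 1.19e-10 by limma) and -0.70 (SE 0.040, adjusted p = 9.06e-11 by limma), and the difference of -0.049 (limma adjusted p = 0.495) was not called. Hspa4l (APG-1) stood at 156 and 157 in unstarved WT, 161 and 158 in starved WT, 139 and 129 in unstarved RA and 105 and 104 in starved RA. It was not called in WT at 0.027 (limma adjusted p = 0.548), fell in RA, at -0.36 (SE 0.041, adjusted p = 6.92e-07 by limma), and was the 1 member lower in RA in normal medium, at -0.22 (SE 0.041, adjusted p = 0.00211 by limma). The responses differed by -0.38 (limma adjusted p = 3.7e-05). Of the whole class, HSP70 and HSP110 had 2 members up and 5 down of 11 in WT, where 39.3% of all genes rose and 39.2% fell, and 2 up and 6 down in RA, where 35% rose and 33.7% fell. Their summed level, of which Hspa8 is the largest part, was 4227 ± 69.7 in unstarved and 6855 ± 198 in starved WT, against 4497 ± 107 and 5219.6 ± 95.2 in the RA groups (SD, n = 2).

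Neither cytosolic HSP90 gene was called upward in either line. Hsp90aa1, the inducible form, stood at 1483 and 1490.2 in unstarved WT, 1172 and 1225 in starved WT, 1629.9 and 1598 in unstarved RA and 1337 and 1348 in starved RA. It was lower in starved samples of both genotypes and fell, at a log2 difference of -0.31 (SE 0.041, adjusted p = 2.68e-06 by limma) in WT and -0.27 (SE 0.041, adjusted p = 2.32e-05 by limma) in RA. Hsp90ab1, the constitutive form, stood at 3275 and 3383 in unstarved WT, 3353 and 3422 in starved WT, 3471 and 3664 in unstarved RA and 3045 and 3031 in starved RA. Its WT groups overlapped, with a log2 difference of 0.025 (limma adjusted p = 0.649), while in RA it fell, at -0.23 (SE 0.049, adjusted p = 0.000533 by limma). The responses of Hsp90ab1 differed by -0.26 (limma adjusted p = 0.00582). That call was lost without WT normal-medium replicate 1, at -0.23 (limma adjusted p = 0.0533).

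Mitochondrial chaperones rose in WT, 7 of 8 called upward and none downward, where 39.3% of all genes rose. In RA 3 rose and 2 fell, where 35% of all genes rose and 33.7% fell. Hspa9 (mortalin), the mitochondrial HSP70 that pulls proteins through the inner membrane, stood at 978 and 983 in unstarved WT, 1459 and 1479.8 in starved WT, 1058 and 1057 in unstarved RA and 1845 and 1802 in starved RA. All starved samples lay above all others, highest in RA. It rose in WT by 0.58 (SE 0.039, adjusted p = 4.25e-10 by limma) and in RA by 0.79 (SE 0.039, adjusted p = 1.58e-11 by limma), and was the only mitochondrial member with a called difference in favour of RA, at 0.20 (limma adjusted p = 0.00624).

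Hspd1 and Hspe1, the genes of HSP60 and HSP10, share the stretch printed above. Hspd1 stood at 720.4 and 741 in unstarved WT, 831 and 880.4 in starved WT, 745 and 804 in unstarved RA and 729 and 730.3 in starved RA. Hspe1 stood at 141 and 147 in unstarved WT, 173 and 189.6 in starved WT, 167 and 169 in unstarved RA and 154 and 153 in starved RA. Both were highest in starved WT. Hspd1 rose in WT by 0.23 (SE 0.044, adjusted p = 0.000169 by limma) and was not called in RA at -0.086 (limma adjusted p = 0.0955), with a call downward without RA normal-medium replicate 1, at -0.14 (limma adjusted p = 0.0106), and on recovered reads with edgeR (log2 difference -0.094, adjusted p = 0.0416) and DESeq2 (-0.094, adjusted p = 0.0428). Hspe1 rose in WT by 0.33 (SE 0.044, adjusted p = 2.37e-06 by limma) and fell in RA, at -0.13 (SE 0.044, adjusted p = 0.0139 by limma). The call in RA was lost without RA normal-medium replicate 2 at -0.12 (limma adjusted p = 0.052), without starved RA replicate 2 at -0.12 (limma adjusted p = 0.0723) and without the filter on low values (limma adjusted p = 0.0562). RA and WT responded differently, by -0.31 (SE 0.062, adjusted p = 0.000539 by limma) for Hspd1 and -0.46 (SE 0.062, adjusted p = 1.06e-05 by limma) for Hspe1, and starved RA lay below starved WT, at -0.23 (limma adjusted p = 0.00025) and -0.24 (limma adjusted p = 0.000147). The exons of the 2 genes share 112 bases in GENCODE on opposite strands, so some reads may be counted for either. The pseudogene entry Hspd1-ps3, which could take reads of Hspd1, rose by 0.19 (limma adjusted p = 0.0162) in WT and was not called in RA at 0.013 (limma adjusted p = 0.871).

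The other mitochondrial members were J-proteins and lower in level. Dnajc30, a partner of ATP synthase, stood at 6.91 and 6.85 in unstarved WT, 11.0 and 11.4 in starved WT, 7.13 and 7.69 in unstarved RA and 11.7 and 12.3 in starved RA. It rose 1.62-fold and 1.62-fold, by 0.63 (limma adjusted p = 8.7e-06) in WT and 0.63 (limma adjusted p = 1.2e-05) in RA, and shares 436 exon bases with Bud23. Dnajc15 (MCJ), a J-protein of the inner membrane, stood at 8.94 and 10.9 in unstarved WT, 8.84 and 9.50 in starved WT, 12.4 and 12.7 in unstarved RA and 9.32 and 9.29 in starved RA. It was not called in WT at -0.10 (limma adjusted p = 0.375) and fell in RA, at -0.40 (SE 0.099, adjusted p = 0.00195 by limma). The difference between its responses, -0.30 (limma adjusted p = 0.0873), was called when WT normal-medium replicate 2 was left out, at -0.43 (limma adjusted p = 0.0242). Dnaja3, Dnajc11 and Dnajc19 rose in WT, and Dnaja3 rose in RA as well. The summed level of the 8 genes was 2175 ± 30.5 in unstarved and 2902 ± 67.1 in starved WT, against 2327 ± 54.2 and 3082 ± 33.5 in the RA groups (SD, n = 2). Hspa9 was the largest part, with means of 981 and 1470 in WT and 1057 and 1823 in RA. Its rise in RA was about as large as that of the sum, and in WT it was smaller than that of the sum.

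The small HSPs included the member with the lowest log2 difference in both lines, Hspb8, and the highest difference between the responses after Hspa12b, Hspb1. Hspb8 (HSP22), which works with the co-chaperone BAG3 in selective autophagy, stood at 87.4 and 89.6 in unstarved WT, 24.7 and 27.1 in starved WT, 85.5 and 87.2 in unstarved RA and 35.3 and 31.7 in starved RA. Starved samples lay far below normal-medium samples in both lines. Hspb8 fell to 0.292 of its normal level in WT and 0.388 in RA, at -1.74 (SE 0.058, adjusted p = 2.43e-14 by limma) and -1.34 (SE 0.058, adjusted p = 1.99e-12 by limma), and the responses differed by 0.39 (SE 0.081, adjusted p = 0.000722 by limma). Hspb6 (HSP20), abundant in muscle, moved the other way. It stood at 47.1 and 47.6 in unstarved WT, 113 and 121 in starved WT, 41.9 and 49.6 in unstarved RA and 103 and 110.1 in starved RA. It rose 2.46-fold in WT and 2.33-fold in RA, by 1.28 (SE 0.063, adjusted p = 5.41e-12 by limma) and 1.21 (SE 0.063, adjusted p = 2.59e-11 by limma). The difference of -0.073 (limma adjusted p = 0.523) was not called with all samples and was called without RA normal-medium replicate 1, at -0.19 (limma adjusted p = 0.0362).

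Hspb1 (HSP27 in human, HSP25 in mouse), which protects actin filaments, responded in opposite directions. It stood at 169.8 and 179 in unstarved WT, 85.5 and 96.7 in starved WT, 169 and 194 in unstarved RA and 203 and 211 in starved RA. Starved WT was the lowest group and starved RA the highest, and the 2 groups in normal medium overlapped. Hspb1 fell in WT to 0.522 of the normal level, at -0.93 (SE 0.062, adjusted p = 3.1e-10 by limma). In RA it rose by 0.19 (SE 0.062, adjusted p = 0.0112 by limma), and this smaller call was lost without RA normal-medium replicate 1 at 0.089 (limma adjusted p = 0.2), without starved RA replicate 2 at 0.16 (limma adjusted p = 0.0822), without the filter on low values at 0.19 (limma adjusted p = 0.0977) and with DESeq2 on recovered reads (log2 difference 0.18, adjusted p = 0.0939). Between the genotypes the response differed by 1.12 (SE 0.087, adjusted p = 1.83e-08 by limma), and starved RA stood 2.27-fold above starved WT, by 1.18 (SE 0.062, adjusted p = 4.52e-11 by limma), calls that held in every alternative run for Hspb1. The pseudogene entry Hsp25-ps1, which may take reads of Hspb1, had values of 37.9 and 38.3 in unstarved WT, 18.2 and 21.0 in starved WT, 34.9 and 40.2 in unstarved RA and 44.8 and 45.5 in starved RA. Its log2 differences were -0.93 (limma adjusted p = 2.52e-09) in WT and 0.26 (limma adjusted p = 0.00361) in RA.

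Hspb7, a heart small HSP, was close to the filter, with values of 1.07 and 0.585 in unstarved WT, 0.503 and 0.219 in starved WT, 0.690 and 1.49 in unstarved RA and 1.80 and 1.34 in starved RA. The RA groups overlapped and the WT groups did not, and 1 starved WT value rested on 12 reads. It was not called in WT at -0.42 (limma adjusted p = 0.0526) or in RA at 0.32 (limma adjusted p = 0.143). Starved RA lay above starved WT by 0.92 (SE 0.19, adjusted p = 0.000444 by limma). The difference in response was 0.74 (limma adjusted p = 0.0296), and this call was lost without WT normal-medium replicate 1 (0.55), starved WT replicate 2 (0.59), RA normal-medium replicate 1 (0.46) or starved RA replicate 1 (0.61), and without the filter on low values (limma adjusted p = 0.141). Its decrease in WT was called without WT normal-medium replicate 2 (-0.61), without starved WT replicate 1 (-0.57) and without either RA normal-medium sample. With all samples it was called in WT at -1.03 (limma adjusted p = 0.0245) with a pseudocount of 0.1, at -0.44 (limma adjusted p = 0.0406) with total-read scaling, at -1.24 with edgeR (adjusted p = 0.0255) and at -1.21 with DESeq2 (adjusted p = 0.0251), so its size depended on the scale. In RA it was called as an increase without RA normal-medium replicate 2, at 0.60 (limma adjusted p = 0.0151). The fifth small HSP that passed the filter, Hspb11, an intraflagellar transport protein despite its name, rose in both genotypes. Cryab, the small HSP known as alpha-B-crystallin, is no member by its symbol and was named after its values were seen. Its samples stood at 35.3 and 38.4 in unstarved WT, 12.8 and 14.3 in starved WT, 37.8 and 36.9 in unstarved RA and 39.3 and 37.9 in starved RA. It fell in WT, at -1.38 (SE 0.066, adjusted p = 3.43e-12 by limma) and was not called in RA at 0.047 (limma adjusted p = 0.54), and its lowest group was starved WT.

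Class A and B J-proteins are the general partners of HSP70. In WT 5 of 10 rose and 2 fell (39.3% and 39.2% of all genes), and in RA 4 rose and 4 fell (35% and 33.7%), so the RA counts were near those of all genes. Dnajb1 (HSP40), the heat-induced partner of Hspa1a, stood at 70.5 and 69.4 in unstarved WT, 99.6 and 94.3 in starved WT, 77.0 and 72.7 in unstarved RA and 62.0 and 61.6 in starved RA. The highest samples were starved WT and the lowest were starved RA, with normal medium between them in both lines. Dnajb1 rose 1.39-fold in WT, by 0.46 (SE 0.045, adjusted p = 5.73e-08 by limma), and fell in RA, at -0.27 (SE 0.045, adjusted p = 5e-05 by limma). The responses differed by -0.74 (SE 0.064, adjusted p = 7.8e-08 by limma), and starved RA lay below starved WT, at -0.64 (SE 0.045, adjusted p = 2.47e-09 by limma). Dnajb6, which keeps aggregation-prone chains soluble, stood at 119 and 124 in unstarved WT, 155 and 159 in starved WT, 122 and 131 in unstarved RA and 115 and 117 in starved RA. It rose in WT by 0.36 (SE 0.043, adjusted p = 7e-07 by limma). In RA it fell, at -0.12 (SE 0.043, adjusted p = 0.0231 by limma), a call lost without RA normal-medium replicate 2 at -0.063 (limma adjusted p = 0.24), starved RA replicate 1 at -0.11 (limma adjusted p = 0.121) and starved RA replicate 2 at -0.13 (limma adjusted p = 0.056), and without the filter on low values (limma adjusted p = 0.0684). The responses of Dnajb6 differed by -0.48 (SE 0.061, adjusted p = 6.22e-06 by limma).

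Dnaja1 and Dnaja2, the class A partners of HSC70, fell in both genotypes. Dnaja1 stood at 283 and 300.0 in unstarved WT, 199.8 and 211 in starved WT, 306 and 310.1 in unstarved RA and 202 and 196 in starved RA. It fell, at -0.50 (SE 0.041, adjusted p = 5.26e-09 by limma) in WT and -0.63 (SE 0.041, adjusted p = 4.89e-10 by limma) in RA. The difference of -0.13 (limma adjusted p = 0.08) was not called, and it was called without WT normal-medium replicate 2 at -0.17 (limma adjusted p = 0.0456) and without starved WT replicate 1 at -0.17 (limma adjusted p = 0.037). Dnaja1 shares 608 exon bases with Smu1 on the opposite strand. Dnaja2 stood at 285 and 294 in unstarved WT, 248 and 260.0 in starved WT, 307 and 307 in unstarved RA and 255 and 261 in starved RA. It fell, at -0.19 (limma adjusted p = 0.000235) in WT and -0.25 (limma adjusted p = 1.5e-05) in RA.

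Dnajb2, a J-protein of neurons that hands ubiquitinated chains on, stood at 35.0 and 33.1 in unstarved WT, 47.7 and 47.2 in starved WT, 35.5 and 36.4 in unstarved RA and 41.8 and 42.0 in starved RA. It rose by 0.47 (limma adjusted p = 2.62e-07) in WT and 0.22 (limma adjusted p = 0.0014) in RA, and the responses differed by -0.25 (limma adjusted p = 0.0082), which total-read scaling brought to -0.18 (limma adjusted p = 0.0525). Dnajb4 stood at 51.9 and 59.9 in unstarved WT, 56.4 and 55.9 in starved WT, 55.4 and 62.6 in unstarved RA and 50.5 and 55.4 in starved RA. Its WT groups overlapped at 0.010 (limma adjusted p = 0.894). In RA it was at -0.15 (limma adjusted p = 0.0562) and was called without RA normal-medium replicate 1 at -0.24 (limma adjusted p = 0.00899), without starved RA replicate 2 at -0.22 (limma adjusted p = 0.0312) and without either WT normal-medium sample. It was also called in RA with edgeR (log2 difference -0.17, adjusted p = 0.0393), median-ratio scaling (limma adjusted p = 0.0478) and total-read scaling (0.0452). Its responses differed by -0.16 (limma adjusted p = 0.172), which was not called, and were called apart without WT normal-medium replicate 2 at -0.27 (limma adjusted p = 0.0333) and without RA normal-medium replicate 1 at -0.25 (limma adjusted p = 0.0387).

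Class C J-proteins share the J domain and otherwise have separate tasks. In WT 11 of 18 rose and 6 fell (39.3% and 39.2% of all genes), and in RA 6 rose and 6 fell (35% and 33.7%), again near the shares of all genes in RA. Dnajc9, a chaperone of histones H3 and H4 that is made when cells copy their DNA, stood at 60.3 and 61.9 in unstarved WT, 50.1 and 52.9 in starved WT, 69.5 and 64.8 in unstarved RA and 31.3 and 28.8 in starved RA. Starved RA stood apart below the other 6 samples. It fell in WT, at -0.24 (SE 0.055, adjusted p = 0.000688 by limma) and in RA by -1.13 (SE 0.055, adjusted p = 9.42e-12 by limma), to 0.448 of the normal level. The difference between the responses was -0.89 (SE 0.077, adjusted p = 7.35e-08 by limma), the lowest of all members, and starved RA lay below starved WT, at -0.76 (SE 0.055, adjusted p = 3.07e-09 by limma). Dnajc2 (zuotin, MPP11), which sits on the ribosome and receives new chains, stood at 83.5 and 85.0 in unstarved WT, 116 and 124 in starved WT, 91.1 and 93.3 in unstarved RA and 87.0 and 86.4 in starved RA. It was highest in starved WT. It rose in WT by 0.50 (SE 0.043, adjusted p = 8.76e-09 by limma) and was not called in RA at -0.087 (limma adjusted p = 0.0808), and the responses differed by -0.59 (SE 0.060, adjusted p = 5.24e-07 by limma).

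The outermost class C genes in WT were Dnajc18 and Dnajc12. Dnajc18, a membrane J-protein, stood at 20.2 and 22.4 in unstarved WT, 38.7 and 36.9 in starved WT, 21.6 and 21.2 in unstarved RA and 35.7 and 34.5 in starved RA. It rose 1.77-fold in WT and 1.64-fold in RA, by 0.80 (limma adjusted p = 3.63e-09) and 0.69 (limma adjusted p = 4.71e-08). Dnajc12, a partner of the aromatic amino acid hydroxylases, stood at 4.44 and 4.27 in unstarved WT, 1.55 and 2.16 in starved WT, 4.51 and 4.24 in unstarved RA and 2.27 and 2.11 in starved RA. It fell to 0.426 and 0.500 of its normal level, at -0.92 (limma adjusted p = 5.07e-06) and -0.75 (limma adjusted p = 6.21e-05). Dnajc8, a splicing-associated J-protein named after its values were seen, rose in WT by 0.19 (limma adjusted p = 0.0015) and fell in RA, at -0.16 (limma adjusted p = 0.00573). The call in RA was lost without RA normal-medium replicate 2 at -0.12 (limma adjusted p = 0.0604) and without starved RA replicate 1 at -0.13 (limma adjusted p = 0.0779). Over all 33 J-proteins, including those of mitochondria, 20 rose and 8 fell in WT, and 12 rose and 11 fell in RA, the latter near the 35% and 33.7% of all genes.

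The CCT subunits form 1 complex of fixed make-up, and their transcripts did not move as 1 group. In WT 4 of 7 rose and 3 fell, where 39.3% of all genes rose and 39.2% fell. In RA 1 rose and 5 fell, where 35% rose and 33.7% fell. Cct4 stood at 274 and 288 in unstarved WT, 414 and 419 in starved WT, 289.7 and 295 in unstarved RA and 348 and 344 in starved RA. Cct2 stood at 521 and 558 in unstarved WT, 663 and 694 in starved WT, 529 and 574 in unstarved RA and 519.6 and 544 in starved RA. Both were highest in starved WT. Cct4 rose by 0.57 (SE 0.037, adjusted p = 2.83e-10 by limma) in WT and 0.24 (SE 0.037, adjusted p = 1.82e-05 by limma) in RA, and Cct2 rose by 0.33 (SE 0.047, adjusted p = 6.5e-06 by limma) in WT and was not called in RA at -0.052 (limma adjusted p = 0.345). Cct5 stood at 563 and 574 in unstarved WT, 618 and 645 in starved WT, 609 and 620.1 in unstarved RA and 524 and 506 in starved RA. Cct7 stood at 445 and 449 in unstarved WT, 478 and 488 in starved WT, 503 and 506 in unstarved RA and 456 and 448 in starved RA. Starved RA was the lowest group for Cct5. Cct5 rose in WT by 0.15 (SE 0.039, adjusted p = 0.00171 by limma) and fell in RA, at -0.25 (SE 0.039, adjusted p = 1.78e-05 by limma). Cct7 rose in WT by 0.11 (SE 0.036, adjusted p = 0.00849 by limma) and fell in RA, at -0.16 (SE 0.036, adjusted p = 0.000804 by limma). The WT call of Cct7 was lost with total-read scaling at 0.039 (limma adjusted p = 0.283), with edgeR (log2 difference 0.075, adjusted p = 0.0587) and without WT normal-medium replicate 1 at 0.11 (limma adjusted p = 0.0603).

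The other 3 subunits fell in both genotypes. Cct3 stood at 515 and 528 in unstarved WT, 356 and 365 in starved WT, 586 and 580.3 in unstarved RA and 345 and 333 in starved RA. Cct6a stood at 440.0 and 455 in unstarved WT, 294 and 312 in starved WT, 469.8 and 486 in unstarved RA and 329 and 329 in starved RA. Cct8 stood at 506 and 521 in unstarved WT, 442 and 452 in starved WT, 527 and 534 in unstarved RA and 402 and 397 in starved RA. Starved samples lay below normal-medium samples of the same line in each gene. In WT the log2 differences were -0.53 (SE 0.037, adjusted p = 6.34e-10 by limma) for Cct3, -0.56 (SE 0.040, adjusted p = 8.15e-10 by limma) for Cct6a and -0.20 (SE 0.036, adjusted p = 8.5e-05 by limma) for Cct8. In RA they were -0.78 (SE 0.037, adjusted p = 7.53e-12 by limma), -0.54 (SE 0.040, adjusted p = 2.69e-09 by limma) and -0.41 (SE 0.036, adjusted p = 2.92e-08 by limma). Tcp1, the gene of the CCT1 subunit, is no member by its symbol. It stood at 539 and 575 in unstarved WT, 454 and 492 in starved WT, 555 and 591 in unstarved RA and 450.2 and 471 in starved RA and fell, at -0.24 (limma adjusted p = 0.000262) in WT and -0.31 (limma adjusted p = 1.94e-05) in RA.

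Against this varied background the called differences in response between genotypes ran 1 way. The difference in response was called downward for 6 of the 7 subunits that are members and upward for none, where 26.1% of all genes were called downward. The differences were -0.38 (limma adjusted p = 0.000163) for Cct2, -0.25 (limma adjusted p = 0.000845) for Cct3, -0.32 (limma adjusted p = 8.27e-05) for Cct4, -0.41 (limma adjusted p = 1.12e-05) for Cct5, -0.27 (limma adjusted p = 0.000276) for Cct7 and -0.21 (limma adjusted p = 0.00293) for Cct8. Cct6a was not called at 0.024 (limma adjusted p = 0.753), and it shares 452 exon bases with Psph on the opposite strand. Tcp1, the subunit gene outside the members, was not called at -0.078 (limma adjusted p = 0.359). For Cct3, starved RA and starved WT did not differ by call, at -0.087 (limma adjusted p = 0.0505), while RA was higher in normal medium by 0.16. Cct7 was also higher in RA in normal medium, by 0.17, and was at -0.10 under starvation. Of the 7, starved RA was called lower than starved WT for 5 and higher for 1, Cct6a at 0.12. Of all genes 32.1% were called lower there and 30.8% higher. The summed level of the 7 genes was 3318 ± 76.7 in unstarved and 3321 ± 77.7 in starved WT, against 3555 ± 58.3 and 2913 ± 16.4 in the RA groups (SD, n = 2). With total-read scaling the sums were 3418 ± 54.7, 3250.3 ± 39.2, 3542 ± 6.03 and 2899 ± 18.5, so that the WT sum also went down. The subunits were measured in the same samples and are not replicates of each other.

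**Figure D3:**
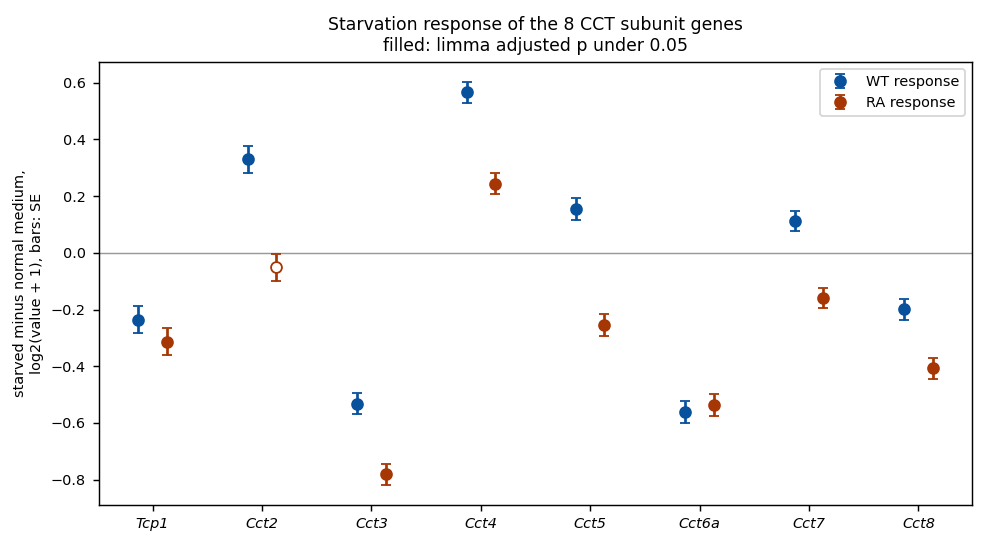
Log2 difference between starved and normal medium for the 7 CCT subunit genes that are members and for Tcp1, in WT (blue) and RA (orange), with bars of 1 SE; filled points were called. The RA point lies below the WT point for every gene apart from Cct6a, and Cct4 is the highest in both lines.

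In normal medium few members differed between the lines. RA differed from WT in 5 members, 4 higher and 1 lower, where 9.63% of all genes were called, 6.68% higher and 2.95% lower. The 4 higher were Hspa2 by 0.35 (SE 0.094, adjusted p = 0.028 by limma), Hspe1 by 0.22 (SE 0.044, adjusted p = 0.00353 by limma), Cct7 by 0.17 (SE 0.036, adjusted p = 0.00485 by limma) and Cct3 by 0.16 (SE 0.037, adjusted p = 0.0106 by limma), and the lower was Hspa4l. The log2 differences of the 56 members that were not called ran from -0.32 to 0.32. With total-read scaling 3 members were higher and 3 lower, so the direction of this small set depended on the scaling. Without WT normal-medium replicate 1 a single member was called, Hspa4l, with 0.31 (limma adjusted p = 0.169) for Hspa2, 0.19 (limma adjusted p = 0.0724) for Hspe1, 0.17 (limma adjusted p = 0.0775) for Cct7 and 0.14 (limma adjusted p = 0.149) for Cct3. Hspa2 also lost its call without WT normal-medium replicate 2 (0.38) and RA normal-medium replicate 1 (0.27). Without the filter on low values 2 were called, Cct7 and Hspa4l.

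Under starvation 41 members differed between the lines, 11 higher and 30 lower in RA, where 62.9% of all genes were called, 30.8% higher and 32.1% lower. The median log2 difference was -0.13 for the members and -0.0081 for all genes. The highest were Hspa12b at 1.35 (SE 0.095, adjusted p = 2.19e-09 by limma), Hspb1 at 1.18 and Hspb7 at 0.92, and the lowest were Dnajc9 at -0.76, Dnajb1 at -0.64 and Hspa4l at -0.61 (SE 0.041, adjusted p = 1.27e-09 by limma). The count was 33 without starved RA replicate 1 and 34 without starved RA replicate 2 or starved WT replicate 1. Among the members with printed values, the calls lost on leaving out a sample were those of Cct6a, Cct7 and Hsp90ab1, which with all samples were at 0.12 (limma adjusted p = 0.0155), -0.10 (limma adjusted p = 0.0256) and -0.16 (limma adjusted p = 0.011). Cct6a was at 0.074 without starved WT replicate 1, and at 0.12 and 0.12 without starved RA replicate 1 or 2. Cct7 was at -0.081 without starved WT replicate 2, and at -0.11 and -0.084 without starved RA replicate 1 or 2. Hsp90ab1 was at -0.16 and -0.15 without those samples. This comparison and the starvation responses share samples and are not independent of each other.

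**Figure D4:**
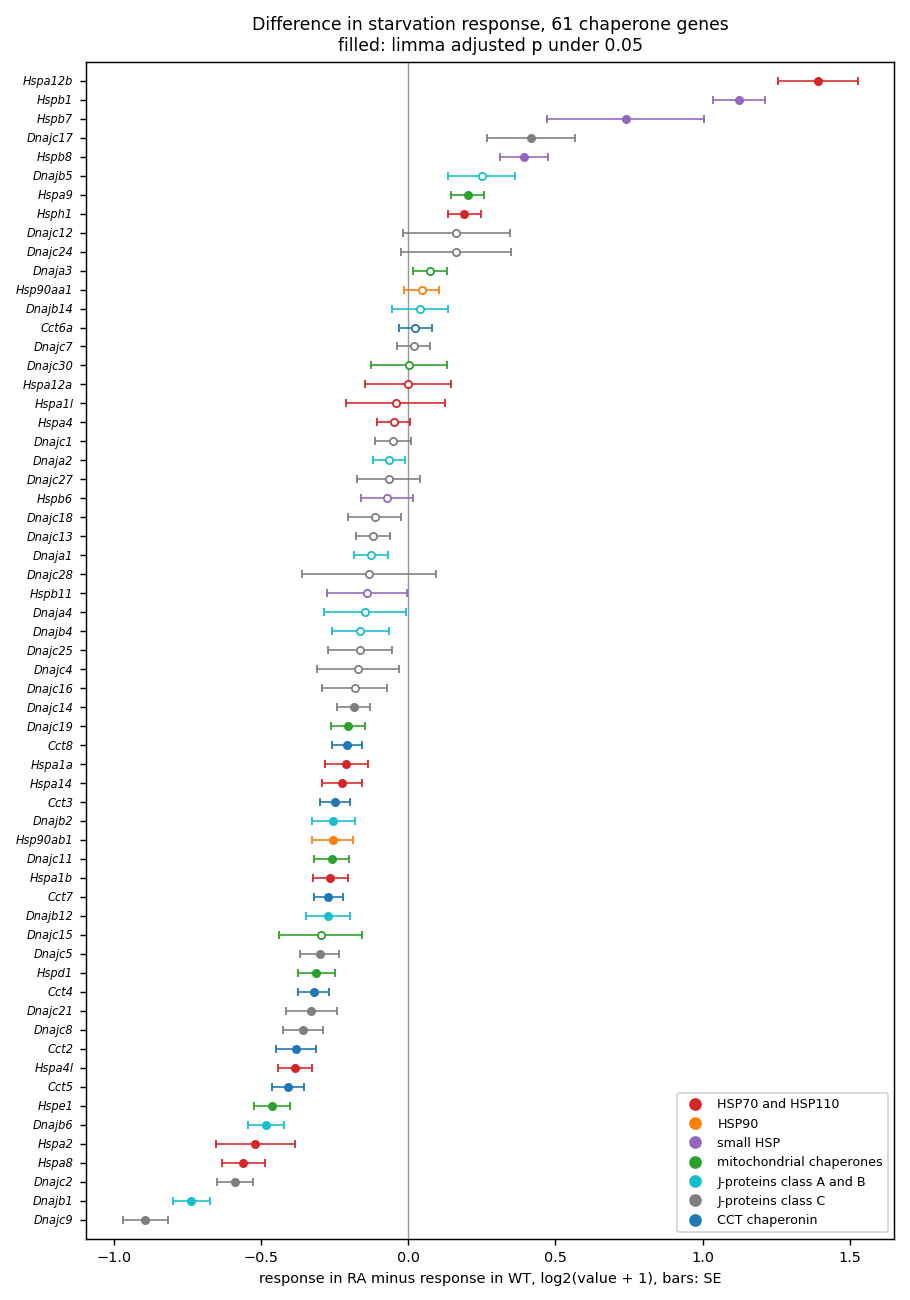
Starvation response in RA less that in WT, on the log2(value + 1) scale with bars of 1 SE, for the 61 genes ordered by size and coloured by role; filled points were called by limma. The 27 called genes below 0 run down to Dnajc9 at -0.89, and the 7 above 0 are Hspa12b, Hspb1, Hspb7, Dnajc17, Hspb8, Hspa9 and Hsph1.

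At stricter thresholds fewer members passed, and the shares of all genes are given beside them. A change of at least 2-fold was taken on the log2(value + 1) scale, where low genes are understated. With it in addition, 4 members were called in WT (19.6% of all genes), 4 in RA (9.03%), 0 between the lines in normal medium (0.505%), 2 under starvation (6.7%) and 2 in the difference between responses (6.1%). The members past 2-fold on that scale were Hspa2, Hspb6, Hspb8 and Hspa12b in WT, Hspa2, Hspb6, Hspb8 and Dnajc9 in RA, and Hspa12b and Hspb1 in the last 2. By group means Dnajc12, at 0.426 of its normal level in WT, was past 2-fold and is not counted here. The same holds for Hspb7 under starvation, with means of 1.57 in RA and 0.361 in WT. At an adjusted p under 1e-05 the counts were 34 (45.6%), 21 (30.6%), 0 (0.869%), 13 (22.2%) and 7 (10.9%) in the same order. In normal medium, where limma made no call at either of these thresholds, 21 members had an unadjusted p under 0.05, and edgeR and DESeq2 called 9 and 8 at an adjusted p under 0.05.

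A list of 12 members that HSF1 is known to switch on or raise in heat (Hspa1a, Hspa1b, Hspa8, Hsph1, Hsp90aa1, Hsp90ab1, Hspb1, Hspd1, Hspe1, Hspa4l, Dnaja1 and Dnajb1) was counted from the calls above. In WT 4 rose (Hspa8, Hspd1, Hspe1 and Dnajb1), 4 fell (Hsph1, Hsp90aa1, Hspb1 and Dnaja1) and 4 were not called, with a median of 0.034, where 39.3% of all genes rose and 39.2% fell. In RA 2 rose (Hspa8 and Hspb1) and 8 fell, with a median of -0.23, where 35% rose and 33.7% fell. The difference between the responses was called upward for 2 and downward for 8, with a median of -0.26, against 24.5% and 26.1% of all genes. Of the 4 genes for heat shock factors and their binding protein, 4 rose in WT (Hsf1, Hsf2, Hsf4 and Hsbp1) and 1 in RA (Hsf1), where 39.3% and 35% of all genes rose. Hsf1 itself stood at 92.9 and 90.1 in unstarved WT, 115 and 122 in starved WT, 85.7 and 85.7 in unstarved RA and 103 and 99.6 in starved RA, and rose by 0.37 (limma adjusted p = 4.63e-07) in WT and 0.24 (limma adjusted p = 9.68e-05) in RA. Hsf2, its relative, rose by 0.16 (limma adjusted p = 0.0485) in WT and was not called in RA at 0.082 (limma adjusted p = 0.311). The WT call of Hsf2 was lost in 7 alternatives, among them the fits without WT normal-medium replicate 1 at 0.15 (limma adjusted p = 0.134), without WT normal-medium replicate 2 at 0.16 (limma adjusted p = 0.109) and without starved WT replicate 2 at 0.10 (limma adjusted p = 0.311). HSF activity is set mainly on the protein, which these data do not measure.

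Genes outside the members that work with these chaperones were counted over whole lists of genes with a shared role. The shares of all genes that rose and fell were 39.3% and 39.2% in WT and 35% and 33.7% in RA, and 24.5% and 26.1% were called upward and downward in the difference between responses. Of 27 cochaperones of HSP70 and HSP90, 11 rose and 10 fell in WT, 4 rose and 15 fell in RA, and the difference between responses was upward for 4 and downward for 12. The WT counts were near the shares of all genes. Stip1 (HOP), which bridges HSP70 and HSP90, stood at 422 and 439 in unstarved WT, 287 and 291 in starved WT, 448 and 458 in unstarved RA and 313 and 308 in starved RA. It fell, at -0.57 (SE 0.037, adjusted p = 2.06e-10 by limma) in WT and -0.54 (SE 0.037, adjusted p = 7.75e-10 by limma) in RA. Bag3, the partner of HSPB8, stood at 55.3 and 51.9 in unstarved WT, 44.8 and 49.5 in starved WT, 47.1 and 51.0 in unstarved RA and 34.4 and 33.1 in starved RA. It fell, at -0.18 (SE 0.059, adjusted p = 0.0101 by limma) in WT and -0.53 (SE 0.059, adjusted p = 5.75e-07 by limma) in RA, and the responses differed by -0.34 (limma adjusted p = 0.00274). The smaller WT call of Bag3 was lost without WT normal-medium replicate 1 at -0.14 (limma adjusted p = 0.106) and without starved WT replicate 1 at -0.11 (limma adjusted p = 0.145).

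Of 10 prefoldin subunits and CCT partners, Tcp1 included, 4 rose and 4 fell in WT, 2 rose and 4 fell in RA, and the difference was upward for 1 and downward for 4. Of 8 partners of the mitochondrial chaperones, 5 rose and none fell in WT, 4 rose and 1 fell in RA, and the difference was downward for 7, where 39.3% of all genes rose in WT, 35% rose in RA and 26.1% had a downward difference. Trap1, the mitochondrial HSP90, stood at 111 and 111 in unstarved WT, 164 and 174 in starved WT, 118 and 118 in unstarved RA and 153 and 152 in starved RA. It rose by 0.60 (SE 0.039, adjusted p = 2.64e-10 by limma) in WT and 0.36 (SE 0.039, adjusted p = 3.15e-07 by limma) in RA, and the responses differed by -0.24 (limma adjusted p = 0.00205). Grpel1, the nucleotide exchange factor of Hspa9, stood at 62.1 and 67.0 in unstarved WT, 66.4 and 65.7 in starved WT, 67.9 and 74.5 in unstarved RA and 54.2 and 55.3 in starved RA. It was not called in WT at 0.035 (limma adjusted p = 0.547) and fell in RA, at -0.37 (SE 0.052, adjusted p = 7.41e-06 by limma), with a difference of -0.41 (limma adjusted p = 0.000224). Hsp90b1 (GRP94), the HSP90 of the endoplasmic reticulum, stood at 1642 and 1707 in unstarved WT, 4815 and 5095 in starved WT, 1481 and 1549 in unstarved RA and 2396 and 2428 in starved RA. It rose by 1.56 (SE 0.048, adjusted p = 8.77e-15 by limma) in WT and 0.67 (SE 0.048, adjusted p = 1.75e-09 by limma) in RA, and the responses differed by -0.89 (limma adjusted p = 1.44e-08).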

How the data were processed

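TruSeq v2 polyA libraries of 8 MEF samples were sequenced on an Illumina HiSeq, and per the submitters' processing notes TopHat2 (2.0.9), the mm9 build, bedtools and edgeR were used. The read counter, gene annotation and handling of strand are not given in the sources used here. The authors deposited 1 table with 49492 gene symbols. Its values are a signal in the form of CPM, a gene's reads over a library size that the authors had scaled in each sample. Its columns are named minus and plus, read as normal and starved from the genotype and medium of the labels. The planned unit was CPM, and the column sums show the scaling, so the values were treated as a signal and the same test was used. Nonzero values were whole multiples of 1 read in 100% of cases (tolerance 0.1). Of the recovered counts from 1 to 9, 78.2% to 80.5% were even, so both mates of a pair may have been counted. The calls of edgeR and DESeq2 on recovered reads may then be too many, and no fit on halved reads was run. A total of 18085 symbols held 0 throughout, and 26 had been changed to dates. Recovered reads and shares cover counting error only.

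The 16232 genes that reached a value of 1 in 2 or more samples were tested with limma (3.58.1, R 4.3.3) on log2(value + 1) over all 8 samples, with a mean per group, eBayes with a mean-variance trend and BH adjustment within each of 5 contrasts, 2-sided, called at an adjusted p under 0.05. Fold changes on this scale understate low genes, and folds given as such are ratios of group means. The 2-fold threshold was set on the log2(value + 1) scale and not on ratios of group means. The tests were tried on simulated counts. Replicate numbers are shared by the groups, but deviations of same-numbered samples correlated between -0.0076 and 0.157, so the samples were not treated as paired. The members and lists were chosen with earlier results of these data known. Named genes were a core set (HSC70, Hspa1a, Hspa1b, HSP110, HSP90, Hspb1, Hspb8, Hspa9, Hspd1, Hspe1, Dnaja1, Dnaja2, Dnajb1, Dnajb4, Dnajb6 and Cct2 to Cct8), the 3 highest and 3 lowest called members of each contrast, the outermost member of each role in WT, and 8 partner genes. Alternatives were a pseudocount of 0.1, no filter, a filter of 5 in 4 samples, median-ratio and total-read scaling, a replicate block, edgeR (4.0.16) and DESeq2 (1.42.0) on recovered reads, an adjusted p under 1e-05, a 2-fold change, and each sample left out. The count of members that rose in WT and fell in RA was added after the data were seen. Overlaps of 25 members with exons of other genes, 19 of them with a gene of mean value of at least 1, come from GENCODE M21 (GRCm38, another build than that of the files) and promoters from RefSeq on GRCm38.p6.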

Additional observations from a re-analysis of the deposited data

Results flagged for a closer look

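The starvation response differed between the genotypes for 34 of the 61 members (limma interaction term, BH-adjusted p under 0.05, against 50.6% of all genes). Members named in the report are listed here with the log2 response in RA less that in WT, the largest first. Responses lower in RA were those of Dnajc9 at -0.89, Dnajb1 at -0.74, Dnajc2 at -0.59, Hspa8 at -0.56, Hspa2 at -0.52, Dnajb6 at -0.48, Hspe1 at -0.46 and Cct5 at -0.41. Smaller differences in the same direction were Hspa4l and Cct2 at -0.38, Cct4 at -0.32, Hspd1 at -0.31, Cct7 at -0.27, Hspa1b and Hsp90ab1 at -0.26, Dnajb2 and Cct3 at -0.25, and Hspa1a and Cct8 at -0.21. Responses higher in RA were those of Hspa12b at 1.39, Hspb1 at 1.12, Hspb7 at 0.74, Hspb8 at 0.39, Hspa9 at 0.20 and Hsph1 at 0.19. The calls of Hspa1a, Hspb7, Hsph1, Hsp90ab1 and Dnajb2 were lost in at least 1 alternative, as given beside their values.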

How the results depend on the processing

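The counts of called members in WT, RA, normal medium, starvation and the difference between responses were 50, 45, 5, 41 and 34. A 2-fold change on the log2(value + 1) scale cut them to 4, 4, 0, 2 and 2. An adjusted p under 1e-05 left 34 in WT and cut the others to 21, 0, 13 and 7. In normal medium the count was 2 without the filter, 9 with edgeR and 8 with DESeq2. With the replicate number as a block the counts were 52, 51, 9, 44 and 34, although the samples share only a number. Leaving out 1 sample at a time gave 47 to 51, 40 to 46, 1 to 6, 33 to 43 and 31 to 34. The 6 members that rose in WT and fell in RA became 3 to 8 on leaving out a sample and 0 at 1e-05 and 0 at 2-fold. The causes were not tested, other than the stricter thresholds themselves. Where an arm was left with 1 sample, it was assumed to vary like the other groups.

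For the genes with printed values, of 2204 alternative values of called results, 2143 kept direction and call, 61 lost the call and none turned. Members without printed values enter the counts above and not this tally. Of 461 alternative values of results that were not called, 391 kept their place, 36 became called and 34 turned sign. In WT, total-read scaling turned Hsp90ab1 to -0.048, Hspa4l to -0.046, Hspa1b to -0.033, Grpel1 to -0.037 and Dnajb4 to -0.062. In WT, edgeR turned Hsp90ab1 to -0.012, Hspa4l to -0.0097, Grpel1 to -0.0031 and Dnajb4 to -0.031, and DESeq2 turned Dnajb4 to -0.0011. The difference between responses turned with total-read scaling for Hspa4 (0.022), Dnaja2 (0.0062) and Hspa12a (0.061), with edgeR for Hspa12a (0.021), and for Dnajc30 with a pseudocount of 0.1 (-0.0015), median-ratio scaling (-0.011) and DESeq2 (-0.0041). On leaving out a sample, values crossed 0 for Cct2 in RA (-0.11 to 0.0077), Hspa12b in RA (-0.077 to 0.0089), Hsf2 in RA (-0.0059 to 0.17), Dnajb4 in WT (-0.092 to 0.11), Dnajc15 in WT (-0.23 to 0.033) and Grpel1 in WT (-0.019 to 0.090), and in the difference between responses for Cct6a (-0.021 to 0.068), Dnajc30 (-0.046 to 0.051), Hspa12a (-0.074 to 0.070) and Hspb6 (-0.19 to 0.046). Depth limited Hspb7, and the 13 members under the filter were not tested.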

Other observations

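Among the 13 members too low to test, the small HSP gene Hspb2 had values of 0.652 and 0.685 in unstarved WT, 0.0838 and 0.0365 in starved WT, 0.368 and 0.698 in unstarved RA and 0.333 and 0.372 in starved RA. The second starved WT value lies under the level of 3 reads in that sample, 0.0548. Hspb9 was listed at 0.261 and 0.322 in WT and 0.345 and 0.194 in RA in normal medium, at 0 in both starved WT samples and at 0.0392 and 0.0413 in starved RA. These values were not tested.

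The 6 chaperone genes of the endoplasmic reticulum left out by the symbol rule were tested in the same fit. In WT 5 rose and 1 fell, with a median log2 difference of 1.52, and in RA 4 rose and 1 fell, with a median of 0.64. The response was lower in RA for 4 of the 6 and higher for none. Of all genes 39.3% rose and 39.2% fell in WT, 35% and 33.7% in RA, and 26.1% had a lower response in RA. The members had medians of 0.14 in WT and -0.087 in RA.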
